A study of Mus musculus with 12 samples.

Results

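This account covers 10 mouse genes of heparan sulfate synthesis and editing, Ext1, Ext2, Ndst1, Ndst2, Glce, Hs2st1, Hs6st1, Hs6st2, Sulf1 and Sulf2, in oligodendrocyte precursor cells (OPCs) and neurons sorted from the cortex. All 10 were found by symbol among the 30165 genes of the OPC count table and among the 17918 genes of the neuron table, and all 10 passed the filter on low counts in both. The set was chosen by the values of Sulf1 in neurons, the gene the study names for its change between dKO and control mice. Those values are given below as a description with no test, and the other 9 genes were added as enzymes of the same pathway.

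The dKO mice carried NG2-CreERT2, a tamoxifen-dependent Cre recombinase expressed from the NG2 (Cspg4) locus, with floxed alleles of Cacna1c and Cacna1d, which encode the pore subunits of the L-type calcium channels Cav1.2 and Cav1.3. The control libraries, here ctl, are labelled WT, and whether those mice carried Cre or floxed alleles is not given in the sources used here. Tamoxifen was given around the end of the first week after birth, and the age at sorting is not given in the labels or methods. Each library pooled 2 mice, and each of the 4 groups had 3 libraries, 12 in all. The Cre acts in NG2-expressing cells, so neurons of dKO mice were not the targeted cells. OPCs were selected with beads against CD140, NG2 and O4, and neurons were what remained after beads had removed astrocytes, endothelial cells, microglia and O4+ cells.

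Heparan sulfate is a long sugar chain carried by proteoglycans at the cell surface and in the matrix. Ext1 and Ext2 form the polymerase that extends the chain, Ndst1 and Ndst2 exchange N-acetyl for N-sulfate groups, Glce converts glucuronic to iduronic acid, Hs2st1 adds 2-O-sulfate and Hs6st1 and Hs6st2 add 6-O-sulfate. Sulf1 and Sulf2 are secreted enzymes that remove 6-O-sulfate from finished chains outside the cell, and the resulting sulfation pattern is known to set how well FGF, Wnt, Shh and PDGF ligands are held and presented. In the developing spinal cord, Sulf1 is known to raise Shh signalling at the site where OPCs arise.

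The sulfatases share a signature in which a cysteine is converted to the catalytic formylglycine by Sumf1. The stretches around this cysteine are shown because they mark what the paralogs have in common, and because the comparison of Sulf1 with Sulf2 below requires that their reads can be separated. Both are coding sequence of 90 bases from GENCODE M21 transcripts on GRCm38, written 5′ to 3′ on the transcribed strand, with the cysteine codon in capitals. The Sulf1 stretch lies in exon 5 of 22 at chr1:12796807-12796896 on the plus strand, and the Sulf2 stretch lies in exon 3 of 21 at chr2:166116981-166117070 on the minus strand.
Sulf1: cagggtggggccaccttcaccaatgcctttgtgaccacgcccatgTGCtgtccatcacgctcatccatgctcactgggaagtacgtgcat
Sulf2: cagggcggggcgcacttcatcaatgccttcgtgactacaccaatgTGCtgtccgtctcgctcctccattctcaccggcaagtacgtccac
The cysteine is residue 87 of 870 in the Sulf1 transcript and residue 88 of 875 in the Sulf2 transcript, and 73 of the 90 bases are identical. Over the whole annotated protein-coding transcripts, 0 of the runs of 31 bases in Sulf1 (8064) occurred in Sulf2 (5171). The same count was 0 for Ext1 with Ext2, Ndst1 with Ndst2 and Hs6st1 with Hs6st2, so reads of these pairs differ in sequence.

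The values are read counts per gene for OPCs and estimated counts per transcript, summed per gene, for neurons. Total counts per library lay between 14935963 and 19812274 for OPCs and between 15052901 and 16344585 for neurons, and the 10 genes had 181 to 5499 reads per library in OPCs and 74 to 2402 in neurons. Cacna1c, a targeted gene, had normalized counts of 373, 411 and 439 in ctl OPCs and 252, 337 and 312 in dKO OPCs, so all dKO libraries were below all ctl libraries. Cacna1d counts were 251, 191 and 255 against 92.8, 153 and 232, and these groups overlapped. Per the methods, the floxed alleles flank only some exons of each gene, so counts over the whole gene do not measure excision. The labelled cell types were not the only ones present. In the OPC libraries, the summed level of 10 oligodendrocyte markers was 52419 to 81923 CPM (counts scaled to an equal library total) and that of 10 OPC markers was 1284 to 2294. In the neuron libraries, 10 endothelial markers summed to 12507 to 25878 CPM and 10 neuron markers to 578 to 1394. No marker of the labelled cell type was at 0 in all 6 libraries. In such mixtures, a change in the number of cells of a type and a change in the RNA per cell cannot be told apart. A level in such a library is likewise that of the mixture, and the part from the labelled cells was not determined.

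In ctl OPC libraries the sulfatases and Ndst1 were by far the most abundant of the 10 transcripts per length. Sulf2 stood at 131 ± 20.6 TPM (SD, n = 3), a unit that scales reads by gene length and library total, above 96.4% of all genes in the table. Ndst1 followed at 91.3 ± 7.21 and Sulf1 at 68.9 ± 17.8 TPM, and the ranges of Ndst1 and Sulf1 overlapped whereas Sulf2 lay apart from Ndst1. Then came Hs6st1 at 29.1 ± 2.83, Ext2 at 24.96 ± 1.77, Hs2st1 at 21.7 ± 0.950 and Ndst2 at 19.5 ± 1.51 TPM. Hs6st2, Ext1 and Glce were lowest, at 15.3 ± 6.64, 9.44 ± 1.59 and 7.71 ± 0.902 TPM. Neighbours from Ndst2 down to Glce had overlapping ranges, as did Hs6st1 and Ext2.

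In ctl neuron libraries the order was different, and these too are levels of a mixture. Ext2 led at 70.1 ± 9.98 TPM (SD, n = 3) and lay apart from the next gene, Sulf1, at 19.4 ± 5.61 TPM. Ndst2 stood at 16.6 ± 0.242, Glce at 15.3 ± 2.48 and Ndst1 at 14.9 ± 2.46 TPM, so the N-sulfotransferases were alike in level here. Ext1 at 9.24 ± 3.12, Hs2st1 at 8.75 ± 1.11, Hs6st2 at 5.99 ± 2.46 and Sulf2 at 5.33 ± 1.63 TPM followed, each with a range that overlapped its neighbour. Hs6st1 was lowest at 2.60 ± 0.247 TPM and lay apart from Sulf2. The tables were counted in different ways, by gene for OPCs and by RefSeq transcript for neurons, so the difference in levels between cell types was not tested.

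**Figure D1:**
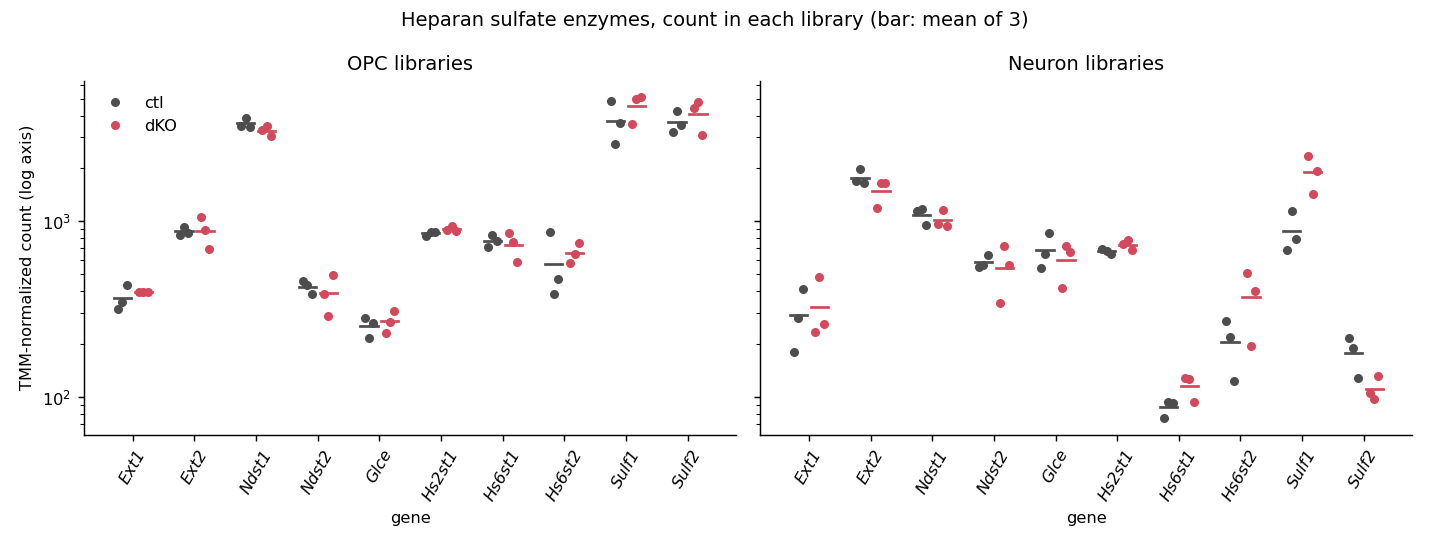
TMM-normalized counts (log axis) of the 10 genes in each library, with ctl in grey, dKO in red and a bar at the mean of 3 libraries, for OPCs on the left and neurons on the right. Sulf1 in neurons stands out, with 681 to 1146 in ctl and 1422 to 2353 in dKO libraries, while the groups overlap for Sulf1 in OPCs.

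Sulf1, the 6-O-endosulfatase that chose the set, was higher in every dKO neuron library than in any ctl neuron library. Its normalized counts were 681, 1146 and 795 in ctl neurons and 2353, 1422 and 1941 in dKO neurons. The gap between the highest ctl and the lowest dKO library was smaller than the range within either group. The log2 fold change was 1.12 (SE 0.24), a 2.18-fold higher level, and per length the level went from 19.4 ± 5.61 to 41.1 ± 6.02 TPM (SD, n = 3). In OPCs, Sulf1 counts were 4811, 2766 and 3622 in ctl and 3580, 4964 and 5094 in dKO libraries. The OPC groups overlapped, with the first ctl library nearly as high as the top dKO libraries. The log2 fold change in OPCs was 0.28 (SE 0.22, edgeR quasi-likelihood test, adjusted p = 0.640), which is not a detected change. This value depended on single ctl libraries. It was 0.51 without ctl replicate 1 (unadjusted p = 0.0412, adjusted p = 0.504 in the edgeR test) and 0.11 without ctl replicate 2.

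Sulf2, the second 6-O-endosulfatase, was low in neurons. Its normalized counts were 215, 190 and 128 in ctl and 105, 96.6 and 131 in dKO neurons. The groups overlapped, since dKO replicate 3 lay just above ctl replicate 3. The log2 fold change was -0.68 (SE 0.29), with an unadjusted p of 0.0438 and an adjusted p of 0.547 in the edgeR test over all 14352 genes, so it did not pass. By CPM, Sulf2 was highest in ctl replicate 1, then ctl replicate 2 and dKO replicate 3 of the neuron libraries. The oligodendrocyte marker sum had the same order there, at 4160, 2354 and 2014 CPM, and a different order below. The part of oligodendrocytes in the Sulf2 values was not tested. In OPCs Sulf2 counts were 3227, 4246 and 3536 in ctl and 4429, 4803 and 3083 in dKO libraries. Their log2 fold change was 0.16 (SE 0.18, edgeR adjusted p = 0.772). Sulf2 overlaps Ncoa3 on the opposite strand and the libraries were not stranded, so reads of the shared part cannot be assigned to one of the genes.

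Since Sulf1 and Sulf2 act on the same bond, their balance within a library was also computed per length, which does not depend on how that library was scaled. In neurons Sulf1 made up 70.2%, 82.0% and 82.1% of the summed sulfatase TPM in ctl and 94.4%, 91.7% and 91.8% in dKO libraries. All dKO values were above all ctl values, and the log2 ratio of Sulf1 to Sulf2 went from 1.87 ± 0.55 to 3.67 ± 0.34 (SD, n = 3). The share holds the Sulf1 values that chose the set and is therefore given without a test. These are ratios within mixed libraries, and the cell types that gave the reads were not told apart. In OPCs Sulf2 was the larger part, and Sulf1 made up 43.7%, 25.3% and 34.7% in ctl and 29.6%, 35.0% and 46.2% in dKO libraries, with overlapping groups. The summed sulfatase level in OPCs was 193 to 205 TPM in ctl and 203 to 236 TPM in dKO libraries, and these groups overlapped. In neurons the sum was 24.7 ± 6.07 TPM in ctl and 44.4 ± 6.50 TPM in dKO libraries.

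**Figure D2:**
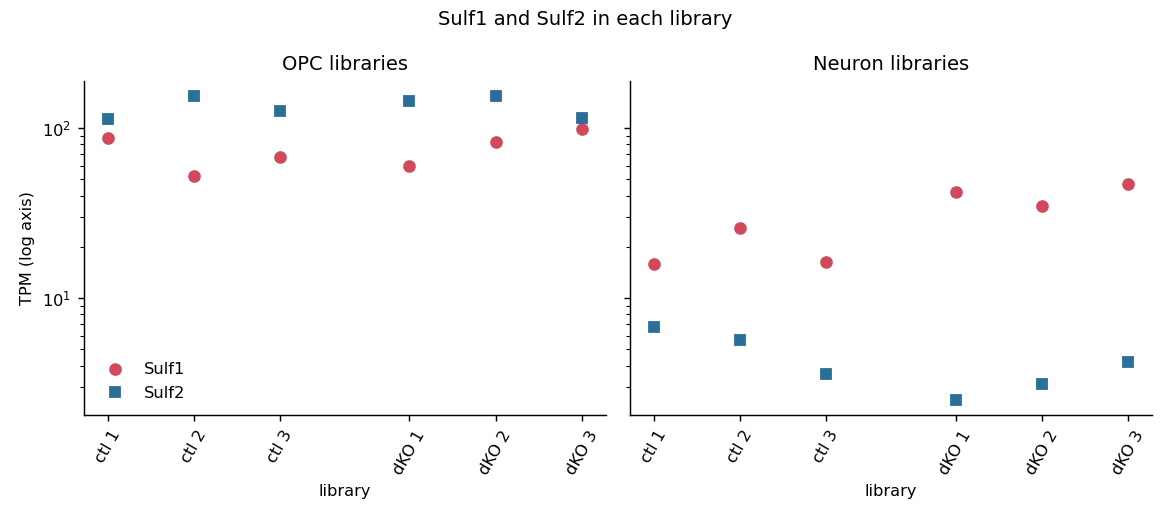
TPM of Sulf1 (red circles) and Sulf2 (blue squares) in each library on a log axis, OPCs left and neurons right. In OPCs Sulf2 lies above Sulf1 in all 6 libraries, and in neurons Sulf1 lies above Sulf2 in all 6, with the widest gap in dKO replicate 1, where Sulf1 is 94.4% of the sum.

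The neuron table separates RefSeq transcripts, and 2 of the 8 Sulf1 transcripts held at least 10% of the gene's counts. NM_001198565, which holds the stretch printed above, carried 53.6% of the Sulf1 counts, with 252, 660 and 418 estimated counts in ctl and 1310, 812 and 1047 in dKO neurons. XM_006495513 carried 32.3%, with 249, 244 and 278 against 920, 324 and 691. Each of these was higher in every dKO library than in every ctl library. The share of NM_001198565 was 37.6%, 56.0% and 56.3% in ctl and 54.6%, 54.0% and 55.2% in dKO neurons, so the groups overlapped in transcript usage. Of the 3 Sulf2 transcripts, XM_030252100 carried 67.9% and NM_028072 carried 23.4%, and NM_028072 was listed at 0 in 3 of 6 libraries. How the counts were divided among transcripts is not given in the sources used here, so values of single transcripts are less certain than their sum.

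**Figure D3:**
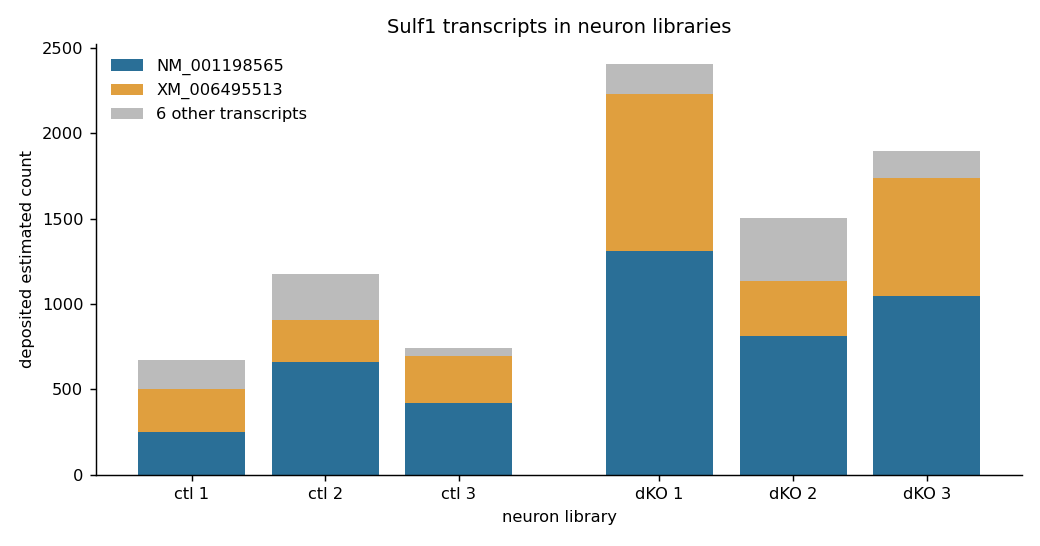
Deposited estimated counts of Sulf1 transcripts in each neuron library, stacked, with NM_001198565 in blue, XM_006495513 in orange and the other 6 transcripts in grey. Both main transcripts are taller in the dKO libraries, with 812 to 1310 against 252 to 660 for NM_001198565.

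The enzymes that add the 6-O-sulfate which Sulf1 and Sulf2 remove were Hs6st1 and Hs6st2. In neurons Hs6st2 counts were 269, 220 and 123 in ctl and 506, 194 and 402 in dKO libraries. Replicates 1 and 3 of dKO were the highest, and dKO replicate 2 lay within the ctl range. The log2 fold change was 0.85 (SE 0.39), with an unadjusted p of 0.0600 and an adjusted p of 0.558 in the edgeR test. It was 0.55 without dKO replicate 1, 0.59 without ctl replicate 3 and 1.15 without dKO replicate 2 (edgeR unadjusted p = 0.00866, adjusted p = 0.393). Hs6st1 counts in neurons were 75.2, 93.4 and 92.1 in ctl and 127, 127 and 93.2 in dKO libraries. The fold change was 0.41 on the log2 scale (SE 0.29, edgeR adjusted p = 0.698). The ctl and dKO ranges of Hs6st1 touched, with dKO replicate 3 just below ctl replicate 2. In OPCs Hs6st2 counts were 867, 382 and 468 in ctl and 579, 648 and 750 in dKO libraries, and ctl replicate 1 was the highest of the 6. The OPC log2 fold changes were 0.20 (SE 0.28, edgeR adjusted p = 0.823) for Hs6st2 and -0.06 (SE 0.15, edgeR adjusted p = 0.903) for Hs6st1. That of Hs6st2 depended on single ctl libraries, at 0.63 without ctl replicate 1 and -0.022 without ctl replicate 2. One transcript, XM_036162004, carried 76.7% of the Hs6st2 counts in neurons.

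Hs2st1, the 2-O-sulfotransferase, varied little between libraries. In OPCs its counts were 824, 867 and 866 in ctl and 885, 942 and 875 in dKO libraries. All dKO values were above all ctl values, but the log2 fold change was only 0.08 (SE 0.10, edgeR adjusted p = 0.785). By normalized count, Hs2st1 was the single gene of the 10 whose groups did not overlap in OPCs, against 16.9% of the 17364 genes tested. In neurons the counts did not overlap for Sulf1, which chose the set, and overlapped for the other 9, against 15.3% of genes without overlap. Per length some of these calls differed. Hs2st1 in OPCs overlapped, at 20.6 to 22.4 TPM in ctl and 20.4 to 23.2 in dKO libraries. Ndst1 in OPCs did not overlap, at 86.9 to 99.6 TPM in ctl and 76.2 to 80.0 in dKO libraries. Hs6st1 in neurons did not either, at 2.37 to 2.86 against 3.00 to 4.10 TPM. The share of all genes apart in TPM was not computed. Hs2st1 in neurons had a log2 fold change of 0.13 (SE 0.13, edgeR adjusted p = 0.787).

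The N-sulfotransferases Ndst1 and Ndst2 showed no detected change. Ndst1 counts in OPCs were 3503, 3893 and 3453 in ctl and 3329, 3472 and 3046 in dKO libraries. The groups overlapped in one pair of libraries only, and the log2 fold change was -0.14 (SE 0.11, edgeR adjusted p = 0.658). Ndst1 and the abundant ribosomal gene Rps14 overlap in part on opposite strands, and their reads there cannot be told apart. Ndst2 in OPCs had counts of 454, 432 and 384 against 384, 289 and 493, with a log2 fold change of -0.13 (SE 0.19, edgeR adjusted p = 0.841). Per length the sum of Ndst1 and Ndst2 was 107, 120 and 105 TPM in ctl and 92.2, 90.6 and 104 TPM in dKO OPCs, with all dKO libraries below all ctl libraries by a narrow margin. In neurons the log2 fold changes were -0.09 (SE 0.15) for Ndst1 and -0.11 (SE 0.25) for Ndst2, with edgeR adjusted p-values of 0.878 and 0.924. Ndst2 in dKO neurons spanned 340 to 723 normalized counts, a range that held all ctl libraries.

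The chain polymerase genes and the epimerase were also without a detected change. In neurons Ext2 counts were 1693, 1982 and 1643 in ctl and 1187, 1646 and 1651 in dKO libraries. The groups overlapped, with dKO replicate 1 the lowest, and the log2 fold change was -0.25 (SE 0.17, edgeR adjusted p = 0.694), or -0.10 without that library. Ext1 ranged widely within the neuron groups, from 180 to 413 in ctl and from 235 to 478 in dKO libraries. Its log2 fold change was 0.16 (SE 0.36, edgeR adjusted p = 0.923). In OPCs the log2 fold changes were 0.11 (SE 0.14) for Ext1 and 0.01 (SE 0.16) for Ext2, with edgeR adjusted p-values of 0.810 and 0.986. Glce, the C5-epimerase, had log2 fold changes of 0.09 (SE 0.17, edgeR adjusted p = 0.881) in OPCs and -0.18 (SE 0.25, edgeR adjusted p = 0.852) in neurons. In neurons Glce counts were 541, 654 and 856 in ctl and 418, 724 and 671 in dKO libraries, and dKO replicate 1 was again the lowest.

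Across the 10 genes, 7 had a higher and 3 a lower level in dKO OPCs, and the median of their log2 fold changes was 0.08 beside 0.01 over all genes tested. An adjusted p under 0.05 in the edgeR test was found for 0 of the 10, against 0.00576% of genes (1 of 17364), and an unadjusted p under 0.05 for 0 of the 10, against 11.5% of genes. In neurons 5 were higher and 5 lower, with a median of 0.02 beside 0.01 over all genes. Of the 9 genes other than Sulf1, 0 had an adjusted p under 0.05, against 0% of all genes (0 of 14352), and 1, Sulf2, had an unadjusted p under 0.05, against 9% of genes. Which genes had one depended on the setting, since Hs6st2 in neurons had an unadjusted p of 0.0389 with DESeq2. With DESeq2, 88 genes in all passed in neurons and 293 in OPCs. In OPCs 9 of the 10 log2 fold changes were within 0.25 of 0, against 6 of 10 in neurons. An exact permutation test of one value over 3 and 3 libraries can reach p = 0.1 at the lowest.

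**Figure D4:**
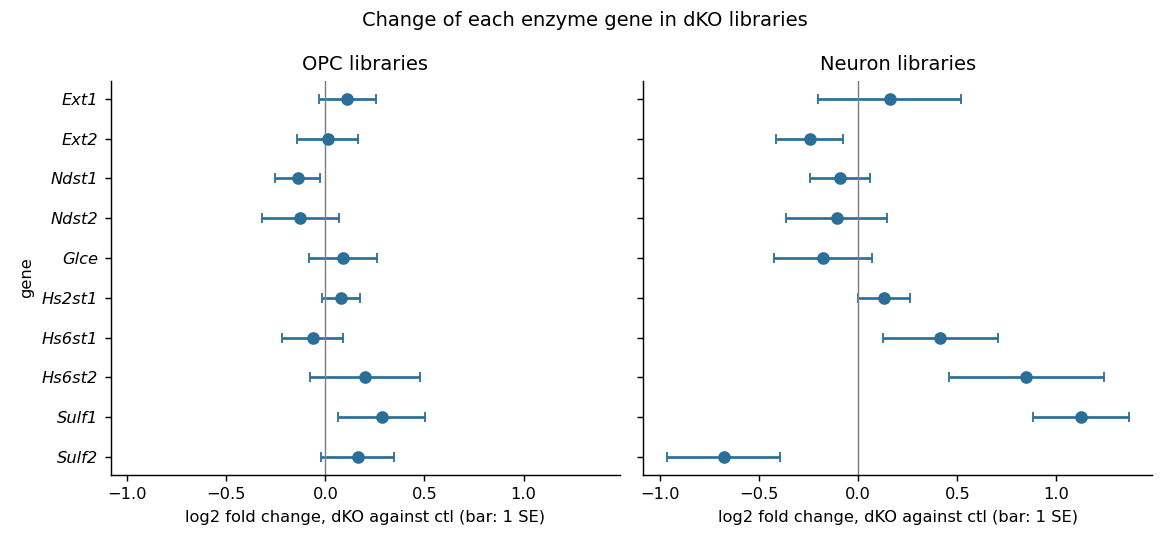
Log2 fold change of each gene, dKO against ctl, with bars of 1 SE, in OPCs (left) and neurons (right). The OPC values lie between -0.14 and 0.28, and the neuron values reach 1.12 for Sulf1 and -0.68 for Sulf2.

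Other cell types moved with these differences, and their part in them was not tested. Of 10 markers of ependymal cells and choroid plexus epithelium, which line the ventricles, 9 were tested in neurons, 7 of them higher and 2 lower in dKO libraries, with a median log2 fold change of 0.76. Their summed level in neurons was 9553, 8824 and 4761 CPM in ctl and 31585, 8825 and 14922 in dKO libraries, and without the dominant transcript Ttr it was 369.4, 369.1 and 195.0 against 899, 377 and 631. The dKO libraries stood in the same order for this sum and for Sulf1, replicate 1 first and replicate 2 last. The ctl libraries did not, since ctl replicate 1 was the highest ctl library for the sum and the lowest for Sulf1. For Hs6st2 the order of all 6 neuron libraries was that of Ttr, which encodes transthyretin. The order of all 6 OPC libraries by Hs6st2 was also that by Ttr, with ctl replicate 1 highest and ctl replicate 2 lowest, at 22311 and 9396 CPM of Ttr. In OPCs Sulf1 was lowest in that same ctl replicate 2, at 156 CPM, but highest in dKO replicate 3, at 309 CPM, and the order of the other libraries differed from that by Ttr. By the ventricular markers without Ttr, which spanned 1045 to 2241 CPM, the OPC libraries stood closer to their order by Sulf1. Only ctl replicate 1 and dKO replicate 3 were exchanged. The order by Hs6st2 differed from this sum in ctl replicate 3 and dKO replicate 1, which were exchanged.

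Markers of other cell types shifted between the neuron groups as well. The 10 endothelial markers were all lower in dKO neurons (median log2 fold change -0.46), and their summed level was 25717, 23066 and 25878 CPM in ctl and 12507, 20647 and 21209 in dKO libraries. The 10 neuron markers summed to 578, 759 and 746 CPM in ctl and 1394, 902 and 779 in dKO libraries, and 8 of 10 were higher. All 10 markers of dividing cells were higher, summing to 363, 376 and 565 against 664, 693 and 617 CPM. For each of these 3 sums the ctl and dKO neuron libraries did not overlap, as for Sulf1 and for the ventricular markers without Ttr. The sums of the remaining lists overlapped between the neuron groups. All 10 oligodendrocyte markers (median log2 fold change -0.91) and all 10 microglial markers (median -0.67) were lower in dKO neurons, 8 of 10 OPC and 8 of 10 astrocyte markers were lower, and 8 of 10 neuroblast and progenitor markers were higher (median 0.45).

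Among the OPC libraries, all 10 microglial markers were higher in dKO (median log2 fold change 1.32), each with an unadjusted p under 0.05, where 11.5% of all genes had one. Their sum was 314 to 1068 CPM against 245 to 303 CPM in ctl. All 10 astrocyte markers were higher as well (median log2 fold change 1.09), 9 of them with an unadjusted p under 0.05, against the same 11.5%. The astrocyte sum was 1231, 1787 and 2190 CPM in ctl and 2035, 5801 and 3479 CPM in dKO OPC libraries, so the groups overlapped and dKO replicate 2 was the highest. Of the abundant oligodendrocyte markers, 8 of 10 were lower in dKO OPC libraries (median -0.42). All 10 endothelial (median 0.35), 9 of 10 fibroblast (median 0.38), 8 of 10 mural and 9 of 10 neuron markers were higher, and the summed level of each of these lists overlapped between the groups. All 7 neuroblast and progenitor markers tested (median 0.53), 6 of 10 OPC markers (median 0.30) and 6 of 9 tested dividing cell markers (median 0.29) were higher. So were 7 of 10 ventricular markers (median 0.07), and these sums overlapped too.

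**Figure D5:**
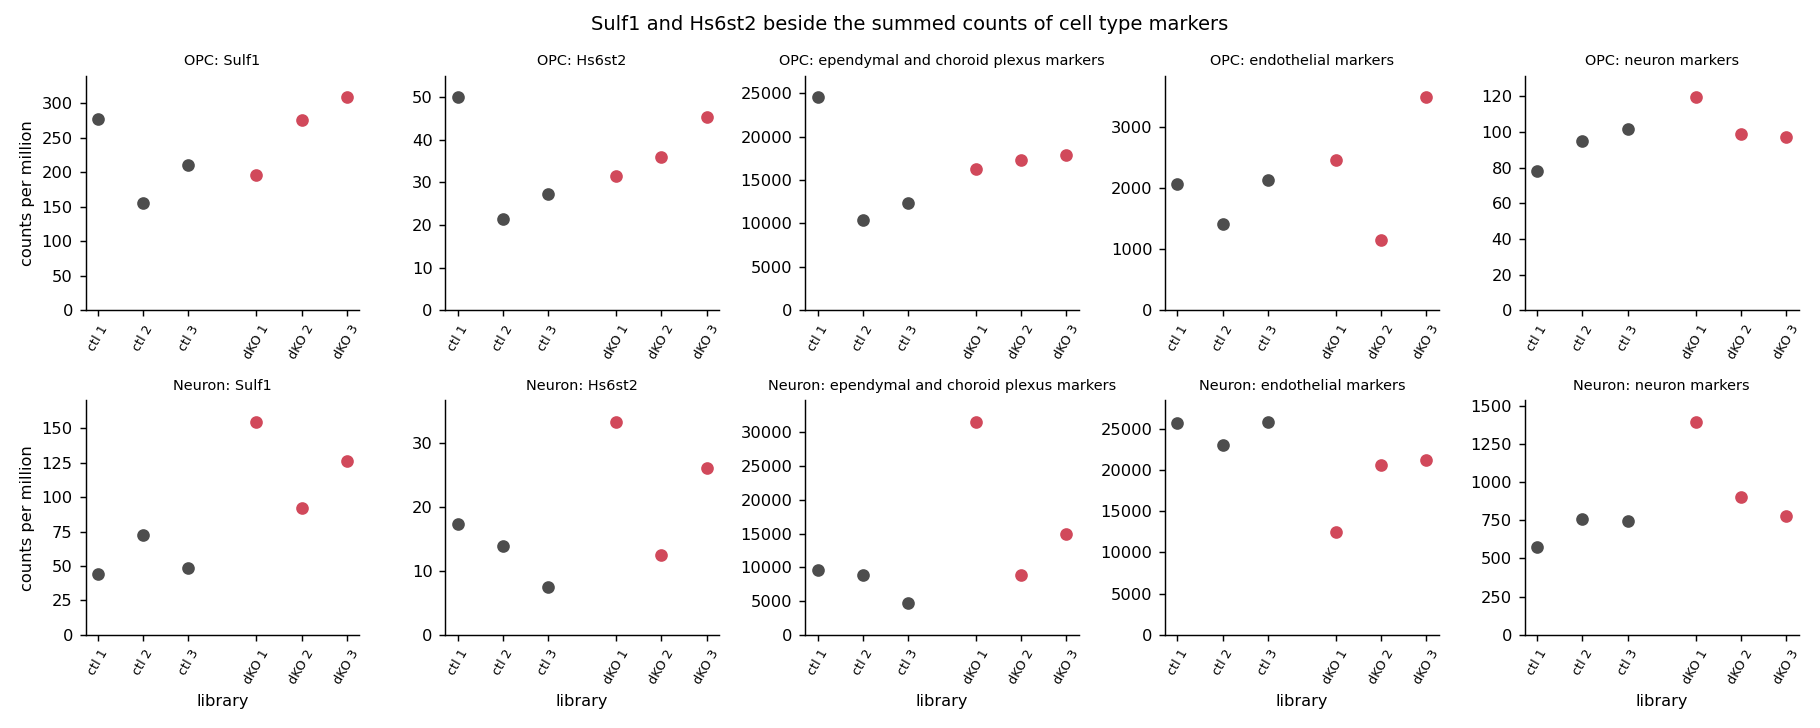
CPM of Sulf1 and Hs6st2 and the summed CPM of 10 ependymal and choroid plexus, 10 endothelial and 10 neuron markers in each library, OPCs above and neurons below, ctl grey and dKO red, all axes from 0. In neurons dKO replicate 1 is highest for Sulf1, Hs6st2, the ventricular markers (31585) and the neuron markers (1394), and lowest for endothelial markers (12507).

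The genes whose profile over the 6 libraries was most like that of Sulf1 were found by the root mean square difference of centred log2 CPM. In neurons these were Slc45a4, Spire2, Myo5b, Cpt1c and Pla2g5, with differences of 0.14 to 0.20, where Sulf1 itself spanned 1.80. Their log2 fold changes in neurons were 0.91, 1.09, 0.83, 0.89 and 1.13. Values near that of Sulf1 follow from the way these genes were picked. In OPCs they were Csrp2, Klhdc7a, Pfkp, Lrrk2 and Ezr, with differences of 0.04 to 0.07, where Sulf1 spanned 0.99. No gene was among the 5 in both cell types. They were picked from 11264 genes in neurons and 11892 in OPCs whose normalized count averaged 100 or more, and likeness is a description over the same 6 libraries for every gene.

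Beyond the 10 genes, 7 lists of related genes were read in the same fits, and 0 of their genes had an adjusted p under 0.05. Core proteins carry the chains to the cell surface and matrix. Of 14 core protein genes, 12 were higher and 2 lower in dKO OPCs, 3 with an unadjusted p under 0.05 (11.5% of all genes), and the median log2 fold change was 0.21 beside 0.01 for all genes. Sdc3, a transmembrane syndecan, had normalized counts of 1052, 1468 and 1580 in ctl and 2081, 3099 and 2142 in dKO OPCs. All dKO libraries were above all ctl libraries, with a log2 fold change of 0.84 (SE 0.20, edgeR unadjusted p = 0.00281, adjusted p = 0.284). Gpc5, a lipid-anchored glypican, had a log2 fold change of 1.48 (SE 0.53), and dKO replicate 2 was highest with 1308 counts against 307 and 431 in the other dKO libraries. Sdc3 was highest in dKO replicate 2 too, the library with the highest astrocyte marker sum (5801 CPM), whose part was not tested. Sdc4 had a log2 fold change of 0.43 (SE 0.19). In neurons 8 core protein genes were higher and 6 lower, and Gpc1, Sdc2 and Sdc1 had log2 fold changes of 0.64 (SE 0.24), 0.49 (SE 0.22) and 0.59 (SE 0.27).

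Enzymes that start the chain stood as follows. Of 10 linker and initiation genes, 8 were higher and 2 lower in dKO OPCs (median 0.12 on the log2 scale), and 4 were higher and 5 lower of 9 tested in neurons (median -0.04). Extl1 and the xylosyltransferase Xylt1 had log2 fold changes of 1.16 (SE 0.51) and 0.57 (SE 0.26) in OPCs. Both were highest in dKO replicate 2, with normalized counts of 216 and 1458 against at most 67.4 and 760 in the other dKO libraries. The astrocyte marker sum was also highest in that library, at 5801 CPM, and its part in these values was not tested. The xylose kinase Fam20b had a log2 fold change of 0.14 (SE 0.10). In neurons B3gat3, the glucuronyltransferase that completes the linker, was higher in all dKO libraries at 0.45 (SE 0.22), the galactosyltransferase B4galt7 was lower in all at -0.34 (SE 0.18), and Extl2 stood at 0.33 (SE 0.26). The summed level of the 10 genes in OPCs was 334 to 371 CPM in ctl and 374 to 417 in dKO libraries.

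Among 10 other sulfotransferases, 3 were higher and 4 lower of 7 tested in OPCs, and 3 were higher and 3 lower of 6 tested in neurons. Hs3st1, which adds the rare 3-O-sulfate, was the most abundant of those named in neurons, with counts of 1441, 1321 and 1142 in ctl and 944, 875 and 1014 in dKO libraries. All dKO libraries were lower, with a log2 fold change of -0.46 (SE 0.14, edgeR unadjusted p = 0.0110, adjusted p = 0.521). Hs3st5 and Hs3st4 in neurons had log2 fold changes of 1.48 (SE 0.75) and 0.89 (SE 0.72) at 3 to 43 reads per library. In OPCs Hs3st6, Hs3st3b1 and Ndst4 had 1.02 (SE 0.43), 0.87 (SE 0.43) and -0.70 (SE 0.48), with 7 to 34 reads per library.

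The sulfate donor and nucleotide sugar genes supply these enzymes. Of 11 genes, 7 were higher and 4 lower in OPCs (median log2 fold change 0.06), and 2 were higher and 8 lower of 10 tested in neurons (median -0.09). Papss2, which makes the sulfate donor PAPS, had a log2 fold change of 1.01 (SE 0.34) in OPCs and was highest, at 345 counts, in dKO replicate 2, as was the astrocyte marker sum. The sugar transporter Slc35d2 and the UDP-glucose enzyme Ugp2 had log2 fold changes of 0.81 (SE 0.36) and 0.26 (SE 0.12). Slc35d2 in neurons stood on the other side, at -0.71 (SE 0.21), with counts of 669, 395 and 572 in ctl and 361, 331 and 308 in dKO libraries. The groups of Slc35d2 did not overlap in either cell type, and the difference between cell types was not tested. The PAPS transporter Slc35b3 had -0.37 (SE 0.19) in neurons, and Ugdh, which makes UDP-glucuronic acid, had 0.25 (SE 0.16).

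Lysosomal degradation and sulfatase activation genes had small differences in OPCs. Of 10 tested in OPCs, 6 were higher and 4 lower (median log2 fold change 0.05), and Arsg, Naglu and Sumf1, the enzyme that makes formylglycine, had -0.26 (SE 0.16), 0.22 (SE 0.13) and 0.19 (SE 0.12). Of 10 tested in neurons, 1 was higher and 9 lower (median -0.22). The 1 higher gene was Arsg at 0.71 (SE 0.27), and Hgsnat and Gusb had -0.39 (SE 0.15) and -0.29 (SE 0.13), each with all dKO libraries below all ctl libraries.

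Feedback targets of FGF, Wnt and hedgehog signalling, pathways whose ligands bind heparan sulfate, were read next. Of 18 genes, 14 were higher and 4 lower in dKO OPCs (median log2 fold change 0.24), and 7 had an unadjusted p under 0.05, 5 of them higher, where 11.5% of all genes had one. Spred2, a brake on Ras signalling, had counts of 401, 326 and 424 in ctl and 525, 619 and 678 in dKO OPCs. The log2 fold change was 0.66 (SE 0.15, edgeR unadjusted p = 0.00194, adjusted p = 0.262). Spry1, a further FGF feedback inhibitor, had 0.40 (SE 0.12) and the ERK phosphatase Dusp6 had 0.66 (SE 0.20), and all dKO libraries were above all ctl libraries for both. In neurons 7 were higher and 9 lower of 16 tested (median -0.16). Dusp6 there had counts of 2681, 2981 and 3399 in ctl and 2289, 2586 and 2134 in dKO libraries, and the log2 fold change was -0.37 (SE 0.15). The secreted Wnt inhibitor Notum had -0.49 (SE 0.18), and the hedgehog-binding protein Hhip had -1.33 (SE 0.59) with ctl replicate 3 below the dKO libraries. Whether the fold changes of Dusp6 differ between the cell types was not tested.

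Enzymes of the chondroitin and dermatan sulfate branch, which use the same linker, were read for comparison. Of 17 tested in OPCs, 12 were higher and 5 lower (median log2 fold change 0.13), 4 of the higher genes with an unadjusted p under 0.05 (11.5% of all genes). Csgalnact1, which starts chondroitin chains, had counts of 309, 257 and 279 in ctl and 414, 524 and 419 in dKO OPCs, and the log2 fold change was 0.68 (SE 0.15, edgeR unadjusted p = 0.00143, adjusted p = 0.246). The chain polymerizing factor Chpf had 0.34 (SE 0.11) and the 4-O-sulfotransferase Chst11 had 0.38 (SE 0.15), both with dKO above ctl in all libraries. In neurons 4 of 17 were higher and 13 lower (median -0.22), and Chpf was again higher in all dKO libraries, at 0.93 (SE 0.30), while Arsb and Chst7 had -0.39 (SE 0.16) and -0.93 (SE 0.52). Over all 7 lists the smallest adjusted p in the edgeR test was 0.246 in OPCs and 0.521 in neurons.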

How the data were processed

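The OPC table the authors deposited holds raw counts of reads per gene, made by alignment with HISAT2 and counting with featureCounts. Their fold changes, p-values and FPKM were not used. For neurons they deposited estimated counts and TPM per RefSeq transcript, and how these were made is not given in the sources used here. The estimated counts were summed per gene and rounded. OPC TPM were computed here from the deposited counts and gene length. Per the labels the build is mm39, whereas the methods name GRCm38, so the deposited gene coordinates served only to list overlapping genes, and the printed stretches carry GRCm38 coordinates of GENCODE M21. Libraries were grouped by their labels. Each cell type was tested on its own with edgeR 4.0.16 (R 4.3.3, quasi-likelihood test, TMM), over genes whose normalized count averaged 10 or more, with Benjamini-Hochberg adjustment at 0.05. The SE was derived from each fold change and its F statistic. On simulated data with a log2 fold change of 2, larger than any difference of the 10 genes, the test called 186 of 191 changed genes for OPCs and 192 of 198 for neurons, with 9 and 8 unchanged genes called. Every gene was simulated with the same relative spread, and smaller changes were not simulated.

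The members and lists were chosen with earlier results of these data known. Named are all 10 members, targeted genes, the 3 genes of smallest p in each related list and the 5 most like Sulf1. Alternatives were DESeq2 1.42.0, RLE, other filters, a replicate block, unrounded counts and each library left out. Libraries that share a replicate number had deviations that correlated at -0.10 to 0.14 in OPCs and -0.09 to 0.17 in neurons. With 3 libraries per group, such correlations cannot show whether equal numbers mark samples handled together. The main test used no pairing, and the replicate block is given as an alternative. Whether OPC and neuron libraries of the same number came from the same mice was not examined. The p-values measure the spread between these libraries only.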

Additional observations from a re-analysis of the deposited data

Results flagged for a closer look

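Slc35d2, a nucleotide sugar transporter, and Dusp6, an ERK phosphatase, had differences of opposite sign in OPCs and neurons. For Slc35d2 all dKO libraries were above all ctl libraries in OPCs, with a log2 fold change of 0.81, and below them in neurons, with -0.71. For Dusp6 the log2 fold changes were 0.66 in OPCs and -0.37 in neurons, again with groups that did not overlap in either. They are listed because every dKO library differed one way in OPCs and the other way in neurons. The difference between the cell types was not tested, since their tables were counted in different ways. They were 2 of 80 genes of the related lists tested in both tables, and over all genes tested in both, 1.29% (173 of 13401) showed this pattern. Of the 10 heparan sulfate genes, 0 did. Groups of 3 libraries were not screened for single outlying values.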

How the results depend on the processing

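Of 230 alternative values of the 10 genes, 216 kept their direction, and 0 of those with a test passed an adjusted p of 0.05. Sulf1 in neurons stayed between 0.94 and 1.37 on the log2 scale with any 1 library left out, and was 1.13 with the replicate block. The signs of small changes turned in 14 cases. Ext2 in OPCs turned to -0.0081 with the replicate block and reached -0.14 to 0.15 with 1 library left out. With 1 library left out, OPC values ranged from -0.19 to 0.068 for Hs6st1, -0.022 to 0.63 for Hs6st2, -0.34 to 0.0498 for Ndst2 and -0.036 to 0.19 for Glce. Neuron values ranged from -0.37 to 0.14 for Ndst2, -0.23 to 0.50 for Ext1 and -0.32 to 0.029 for Glce. In OPCs Sulf1 ranged from 0.11 to 0.51, Sulf2 from 0.03 to 0.32 and Ext1 from 0.02 to 0.24, and in neurons Sulf2 from -0.87 to -0.52, Hs6st2 from 0.55 to 1.15, Hs6st1 from 0.32 to 0.55 and Ext2 from -0.32 to -0.10. The OPC change of Hs6st2 was 0.63 without ctl replicate 1 (edgeR unadjusted p = 0.00688, adjusted p = 0.471) and -0.022 without ctl replicate 2. Counts of genes past the threshold depended on the tool. In OPCs there was 1 gene in the main test, 293 with DESeq2, 87 with no filter on low counts and 27 with the replicate block. With 1 library left out there were 1 to 199, the 199 without dKO replicate 2. In neurons there were 88 with DESeq2 and 0 otherwise, the replicate block and each library left out included, while 1292 genes had an unadjusted p under 0.05. The replicate block changed no call of the 10 genes at an adjusted p of 0.05, and genes of the related lists were not read under it. The unadjusted p of Sulf2 in neurons was 0.0842 with it, and 0.0161 to 0.158 with 1 library left out, and that of Hs6st2 in neurons was 0.0461 with no filter on low counts and 0.00866 to 0.211 with 1 library left out. The cause of these differences was not tested. Reads per library were fewest for Hs6st1 in neurons, at 74 to 134.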
